A study of Homo sapiens with 2 samples.

Results

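Facing pairs are crosslink regions of Cas9 that lie close together on opposite strands, with the plus-strand region to the left of the minus-strand region, so that each strand runs towards the other. They were taken in each library alone as every plus-strand and minus-strand region of a chromosome whose starts differ by 1 to 110 bases, the minus-strand start being the larger. Replicate 1 held 121 such pairs and replicate 2 held 432, which gave 242 and 864 member regions, 1106 of the 10199 regions in all. Members made up 5.76% of the 4204 regions of replicate 1 (95% interval 5.07 to 6.50) and 14.4% of the 5995 of replicate 2 (13.5 to 15.3). The members were chosen by the position and strand of the regions in the same library, so their number and their orientation are a description and not a result.

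Both libraries are irCLIP of Cas9 from H1-iCas9 embryonic stem cells, derived from the established human line H1, and lines of this kind make Cas9 when doxycycline is added. All cells had 1 µg/ml doxycycline for 24 hours and ultraviolet light at 254 nm and 300 mJ/cm2, and Cas9 was recovered through a FLAG antibody. They form a single group, no control library was analysed here, and the labels name neither a guide RNA nor separate cultures. With 2 libraries, an exact sign-flip permutation test over samples cannot give a two-sided p below 0.5, so no test is given, and comparisons are by values and exact binomial (Clopper-Pearson) intervals. The intervals treat regions as independent, which the members of a pair are not, and cover counting error only. The labelled cell type could not be checked, because crosslink regions are not a measure of RNA level.

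In CLIP methods, ultraviolet light bonds a protein to RNA in direct contact with it, and reverse transcriptase often stops at the bonded base. The start of a read then marks the contact, and its strand marks the strand of the RNA. A single transcript gives sites on 1 strand, whereas sites on both strands of a short stretch correspond to reads of both complementary sequences. Cas9 is a bacterial nuclease that carries a guide RNA, and its guide is itself a short structured RNA.

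Sequence tables covered the stretch between the members at 3 places, and these are shown because they let a reader see what lies between facing sites. They come from the RefSeq tables of promoter windows (250 bases before to 50 after a gene start) and of miRNA hairpins, both on GRCh38.p14, the assembly of hg38. Of the 553 pairs, 2 in replicate 1 and 1 in replicate 2 touched a promoter window, and 1 in replicate 2 touched a hairpin. The sequences run 5′ to 3′ on the strand of the gene, and capitals mark the bases from 1 member to the other, both included.
CZ1P-ASNS, minus strand, chr7:97972383-97972452: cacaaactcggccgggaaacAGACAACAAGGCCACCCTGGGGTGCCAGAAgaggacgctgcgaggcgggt
LINC02682, plus strand, chr11:15910714-15910771: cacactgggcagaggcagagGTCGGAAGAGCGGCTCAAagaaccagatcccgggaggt
MIR548AW hairpin, plus strand, chr9:132945707-132945771: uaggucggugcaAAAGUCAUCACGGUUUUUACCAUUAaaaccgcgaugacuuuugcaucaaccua

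The CZ1P-ASNS stretch, near the start of a transcript that reads into the asparagine synthetase gene, held a pair in both libraries. Its plus-strand site lay at 97972403 and its minus-strand site at 97972432, 45 and 74 bases upstream of the listed start at 97972358. The plus and minus scores were 82.97 and 79.99 in replicate 1 and 136.8 and 151.7 in replicate 2, so the members were nearly equal within a library and higher in replicate 2. Of the 30 bases from site to site, 60% were G or C, against 58% over the whole window and a median of 58.7% over 35116 promoter windows.

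The LINC02682 pair, upstream of a long noncoding RNA gene, was complete in replicate 1 alone. Its plus-strand site at 15910734, 199 bases before the listed start, scored 266.5 in replicate 1 and 328.0 in replicate 2. Its minus-strand site at 15910751 scored 23.1 in replicate 1 and was not listed in replicate 2. The capitals hold the letters GGAAGAGC, a run that common Illumina adapter oligonucleotides also carry. It was searched for after the sequence was seen, on both strands, and 2.39% of all promoter windows hold it, as do 1 of the 25 windows with a region of replicate 1 and 2 of the windows with a region of replicate 2, or 1.80%. The LINC02682 window, where the run was first seen, is the 1 of replicate 1 and is among the 2 of replicate 2. The shares of windows with a region therefore do not test the run. All these shares are for GGAAGAGC alone, and a longer match to adapter sequence around it was not searched for. They do not give the rate of a longer run. A match of letters is a description, and the part of adapter sequence in any region was not tested.

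MIR548AW, a miRNA gene of the miR-548 family, has a hairpin of 65 bases and lies within GFI1B, a gene for a blood transcription factor. In replicate 2 the plus-strand site fell at base 13 of the hairpin and the minus-strand site at base 37, with scores of 3.26 and 7.89. Replicate 1 had a plus-strand region 1 base to the left, at 132945718, with a score of 3.94 and no partner. All these scores are low beside the medians of 38.2 and 38.7 over members. The arms of the printed hairpin are nearly complementary to each other, and how reads with several alignments were treated is not known. The strand and placement of these sites are therefore uncertain.

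The distance between facing members, which the rule bounds, mostly took a narrow range within the bounds. The libraries are not independent here, since 98 of the pairs are the same in both, the widest included. The median was 25 bases in each, the quartiles were 22 and 30 in each, and the range was 16 to 109 in each. Distances of 19 to 32 bases took 81.0% of the pairs of replicate 1 (72.9 to 87.6) and 84.0% of those of replicate 2 (80.2 to 87.4). Few pairs came near the limit of 110 bases. The widest pair inside it had 109 bases in both libraries, in IGHG4, with plus and minus scores of 114.1 and 47.0 in replicate 1 and 140.0 and 42.8 in replicate 2. The first facing pair outside it had 429 bases in replicate 1, with scores of 209.95 and 50.7. In replicate 2 there were 2 at 165 bases, and the one on chromosome 15 had scores of 149.6 and 15.1. At the low end no pair had fewer than 16 bases, and 0 pairs of opposite strand shared a start.

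Neighbours in other orientations were few. Pairs facing away from each other, with the minus-strand start 1 to 110 bases to the left, numbered 0 in replicate 1 and 0 in replicate 2. Same-strand neighbours at 1 to 110 bases numbered 4 in each library. Facing pairs beyond 110 and up to 1000 bases numbered 5 and 7, and pairs facing away at those distances 2 and 7. The distance to further regions was measured for pairs only, so it is not shown to be particular to them. The median distance from a pair to the nearest other region of its library was 226.4 kb in replicate 1 and 186.9 kb in replicate 2, and 1 and 4 pairs had another region within 1 kb. No region belonged to more than 1 pair, and all 242 members in replicate 1 and 99.8% in replicate 2 were a single base wide. The width of other regions is not set beside this.

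Recurrence in the other library was not used by the rule, and here the libraries differed. A region was counted as recurring when the other library had a same-strand region sharing 1 base or more with it. Of all regions, 58.8% of replicate 1 and 41.3% of replicate 2 recurred. Of members, 217 of 242 recurred in replicate 1, or 89.7% (85.1 to 93.2), against 57.0% of the other regions of that library (55.4 to 58.5). In replicate 2, 246 of 864 members recurred, or 28.5% (25.5 to 31.6), against 43.4% of the other regions (42.1 to 44.8). Members were therefore above the other regions in replicate 1 and below them in replicate 2, and in neither library did the intervals overlap. The 217 and 246 recurring members are largely the same sites, those of the 98 pairs found in both libraries. Their shares thus differ mainly through the member totals, 242 and 864. Over the 2 libraries the share of members was 59.1% ± 43.3 (SD, n = 2) and that of other regions 50.2% ± 9.58 (SD, n = 2), so the mean of the members describes neither library.

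The same order held within score groups in both libraries, where the unequal member totals enter in the same way. The deposited score of a region is on a scale that the sources used here do not give, and each library was split at its quartiles into 4 groups of regions. In the lowest group of replicate 1, 47.4% of 19 members recurred (24.4 to 71.1), against 23.5% of other regions (21.0 to 26.3), and these intervals overlap. In the second group the shares were 72.7% (54.5 to 86.7) and 42.7% (39.7 to 45.8), and in the third 95.8% (89.6 to 98.8) and 69.9% (66.9 to 72.8). In the highest group they were 97.9% (92.6 to 99.7) and 95.3% (93.8 to 96.5), which did not differ beyond their intervals. In replicate 2 the members were lower in every group, with 9.86% (4.06 to 19.3) against 25.4% (23.2 to 27.8) in the lowest group and 44.8% (39.2 to 50.5) against 82.3% (80.02 to 84.5) in the highest.

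**Figure D1:**
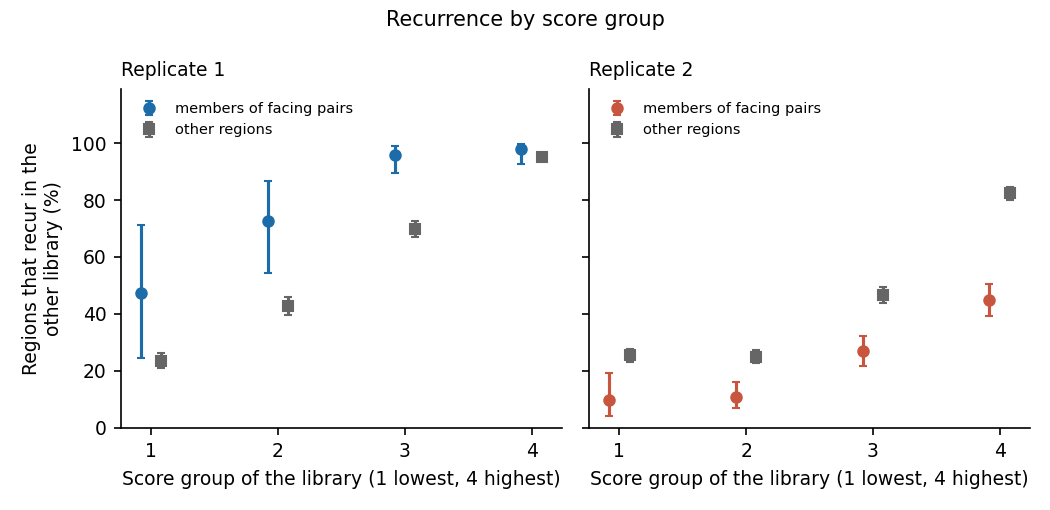
Percent of regions that recur in the other library (vertical axis) by score group within a library (horizontal axis), for members of facing pairs (circles) and other regions (squares); bars are exact 95% binomial intervals. Members lie above the other regions in replicate 1 and below them in replicate 2, where 44.8% of members in the highest group recurred against 82.3% of other regions. The recurring members of the libraries are largely the same sites, while the member totals differ.

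The same 98 pairs were found in both libraries, which is 81.0% of the pairs of replicate 1 (72.9 to 87.6) and 22.7% of those of replicate 2 (18.8 to 26.9). The number shared is 1 count, so the difference between these shares is that of the pair totals, 121 and 432, and no more than 121 of the pairs of replicate 2 could have recurred. Their distance is the same in both libraries by construction, since nearly all members are single bases. A further 21 pairs of replicate 1 and 50 of replicate 2 had 1 member in the other library, and 2 pairs of replicate 1 and 284 of replicate 2 had none. Near misses were rare, since the absent member had a same-strand start within 5 bases in 1 of the 21 and 1 of the 50 pairs, and 2 of the 284 pairs had such a start for either member. In these incomplete pairs the recurring member was the higher one in 19 of 21 and in 40 of 50, with median scores of 228.6 against 10.7 in replicate 1 and 51.6 against 18.0 in replicate 2.

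A smaller share of the high-scoring pairs recurred in replicate 2, where there are more of them. Both members were in the highest score group in 28 pairs of replicate 1, of which 27 recurred, and in 118 pairs of replicate 2, of which 46 recurred, or 39.0% (30.1 to 48.4), against 96.4% (81.7 to 99.9) in replicate 1. In 71 of those 118 neither member was listed in replicate 1. The 5 pairs of replicate 2 with no recurring member and the highest lower scores are given here. The first, in no annotated gene on chromosome 14 at 32845498 and 32845525, scored 343.6 and 325.8. The pair in PRSS16, a thymus-specific serine protease gene, scored 410.4 and 324.5, and that in ARHGAP24 305.3 and 301.02. The pair in LGR6, an R-spondin receptor gene, scored 331.6 and 293.7, and that in LOC124902760 301.7 and 289.7. By the rule none of these members had a same-strand region in replicate 1. Replicate 1 had 2 unshared pairs, in TMEM132D with 47.1 and 17.8 and on chromosome 1 at 181133877 with 16.1 and 35.2.

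Shared pairs scored higher in replicate 2. Over the 196 members of shared pairs the median ratio of replicate 2 to replicate 1 was 1.72, and 155 members were higher in replicate 2, or 79.1%. Over the 2209 shared regions outside pairs in either library the median ratio was 1.15, with 56.0% higher in replicate 2. The score is not known to be comparable between libraries, so these values are set side by side without a test.

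Members scored above other regions within each library. The median was 38.2 for members and 21.0 for other regions in replicate 1, with quartiles of 23.1 and 75.1 against 10.7 and 44.1. In replicate 2 it was 38.7 and 20.7, with quartiles of 20.4 and 92.3 against 12.0 and 51.6. Between the libraries the median of members was 38.5 ± 0.415 (SD, n = 2) and that of other regions 20.9 ± 0.277 (SD, n = 2). Other regions that recur had medians of 35.2 in replicate 1 and 45.1 in replicate 2, below and above the medians of all members. The members here were not limited to recurring ones, and only 28.5% of those of replicate 2 recurred. The sets are therefore unlike, and the order of recurring members against recurring other regions is not given by these values.

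The higher member lay on either strand, and most pairs had members within 2-fold of each other. The plus-strand member was higher in 53 of 121 pairs of replicate 1 and the minus-strand member in 66, and in replicate 2 the numbers were 204 and 212 of 432. The higher member exceeded the lower by a median of 1.85-fold in replicate 1 and 1.58-fold in replicate 2, and 55.4% (46.1 to 64.4) and 66.2% (61.5 to 70.7) of pairs were within 2-fold. Across pairs, the Spearman rank correlation of the plus and minus scores was 0.14 in replicate 1 (121 pairs) and 0.55 in replicate 2 (432 pairs). Over the 98 shared pairs it was 0.38 and 0.29, and over the 284 pairs of replicate 2 with no recurring member it was 0.69. These are descriptions across places within 1 library. The 71 unshared pairs of replicate 2 with both members in the highest group had a median of 1.18-fold. Taking both members from the highest group leaves out pairs with a low partner, which by itself narrows the fold. In replicate 1 the 27 shared pairs taken in this way had a median of 1.61-fold. These sets come from different libraries, and the median fold over all pairs was also lower in replicate 2. The values therefore do not compare unshared with shared pairs.

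**Figure D2:**
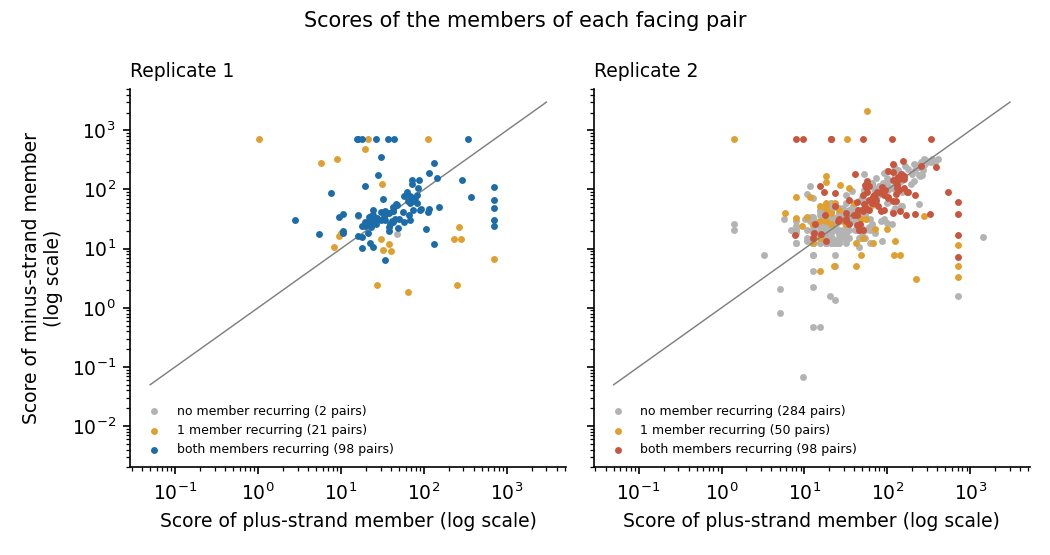
Score of the minus-strand member (vertical axis, log scale) against that of the plus-strand member (horizontal axis, log scale) for each facing pair; colour gives how many members recur in the other library and the line marks equal scores. The grey pairs of replicate 2, with no recurring member, have a Spearman rank correlation of 0.69 over all 284, and the partners of points at 708.396 have medians of 28.6 and 17.0.

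A minority of pairs was very unequal. Scores of single sites stop at 708.396 in both libraries, and 16 pairs of replicate 1 and 19 of replicate 2 had 1 member with a site at that ceiling, while 0 and 0 had both. The partner of such a member had a median score of 28.6 in replicate 1 and 17.0 in replicate 2. In BCKDHB, a subunit gene of the branched-chain ketoacid dehydrogenase, the minus-strand member was at the ceiling in both libraries and the plus-strand member scored 36.6 and 20.8. In RASGRP2, chosen like CACNA2D1 after its values were seen and an exchange factor gene for small GTPases, the partner of the ceiling member scored 44.1 and 113.7. PHF20L1, a chromatin reader gene, had the highest partner score of the ceiling pairs of replicate 1, 339.7, and 336.5 in replicate 2. The next partners in replicate 1 scored 112.9 on chromosome 18 and 109.8 on chromosome 13. In replicate 2 the ceiling member of the CACNA2D1 pair, in a calcium channel subunit gene, had a partner of 1.59. Ratios over 8-fold were found in 21.5% of the pairs of replicate 1 (14.5 to 29.9) and 7.64% of those of replicate 2 (5.32 to 10.6).

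Which member was the higher one was repeatable. The same member led in both libraries in 77 of the 98 shared pairs, and in 33 of the 34 that were over 2-fold apart in replicate 1. The log2 ratio of plus to minus score in replicate 1 correlated with that in replicate 2 at a Spearman rank correlation of 0.81 over the 98 pairs, which share library and score scale within each axis. In XRCC6, the Ku70 gene of DNA end joining, the ratio was 1.54 and 0.97 on the log2 scale. In DLGAP2, a postsynaptic scaffold gene, it was -1.08 and -1.17.

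**Figure D3:**
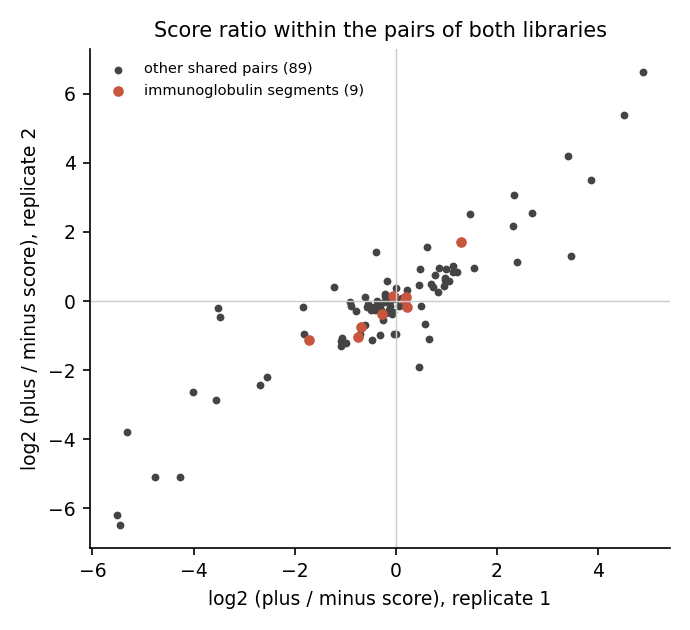
Log2 ratio of plus to minus score in replicate 2 (vertical axis) against that in replicate 1 (horizontal axis) for the 98 pairs found in both libraries; the 9 pairs in immunoglobulin segments are in red. The points rise together (Spearman rank correlation 0.81), and the immunoglobulin pairs lie near the middle, at log2 ratios between -1.71 and 1.71.

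Immunoglobulin loci held the pairs with the widest spacing. These loci carry the variable (V), joining (J) and constant (C) gene segments that B cells rearrange into antibody genes. Of 601 immunoglobulin and T cell receptor segments, 9 held a pair in replicate 1 and 9 in replicate 2, and the same 9 pairs were found in both libraries. Of all 59716 genes, 0.144% held a pair in replicate 1 and 0.511% in replicate 2. The 18 regions of these pairs were nearly all the regions that fell in such segments, 19 in replicate 1 and 20 in replicate 2. The median distance was 72 bases within these 9 pairs (range 33 to 109) and 25 bases outside them. Pairs over 45 bases apart numbered 7 in replicate 1, all 7 in these segments, and 11 in replicate 2, of which 7 lay there.

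**Figure D4:**
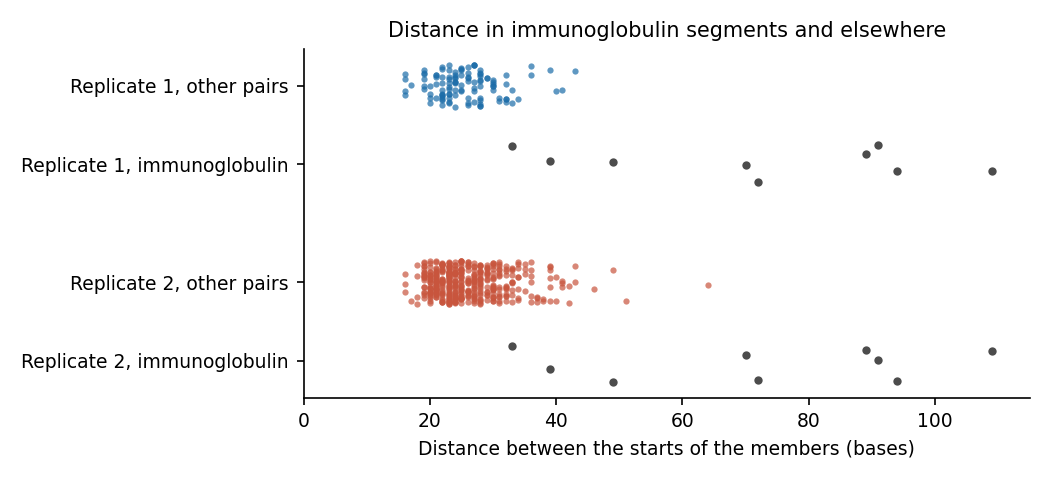
Distance between the starts of the members in bases (horizontal axis) for each pair, with pairs in immunoglobulin segments in dark grey and other pairs in colour; vertical spread has no meaning. Immunoglobulin pairs span 33 to 109 bases at the same places in both libraries, and the other pairs end at 43 bases in replicate 1 and at 64 in replicate 2.

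The constant-region genes of the heavy chain gave the widest pairs. In IGHG2 on chromosome 14 the sites at 105643362 and 105643456 were 94 bases apart, with plus and minus scores of 88.2 and 142.3 in replicate 1 and 117.2 and 198.1 in replicate 2. In IGHG4 the sites at 105625082 and 105625191 were 109 bases apart, with the scores given above. IGHG2 had the higher minus-strand member and IGHG4 the higher plus-strand member, each in both libraries. The light chain constant gene IGLC1 and the constant-region pseudogene IGLC6 on chromosome 22 had pairs 89 and 91 bases apart. IGLC1 scored 27.0 and 32.5 in replicate 1 and 31.3 and 40.6 in replicate 2, and IGLC6 scored 17.9 and 15.4 in replicate 1 and 15.9 and 17.8 in replicate 2.

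Variable and joining segments had shorter and more varied spacing. The heavy chain segments IGHV3-35 and IGHV1-3 had 72 and 70 bases between their sites. IGHV3-35 scored 67.8 and 60.2 in replicate 1 and 87.2 and 85.9 in replicate 2, while IGHV1-3 was among the lowest of the shared pairs, with 5.48 and 17.9 in replicate 1 and 7.74 and 17.0 in replicate 2. The kappa segments IGKV1-6 and IGKJ4 on chromosome 2 had 39 and 33 bases. IGKV1-6 scored 72.5 and 121.8 in replicate 1 and 101.1 and 207.1 in replicate 2, and IGKJ4 scored 38.2 and 39.7 in replicate 1 and 66.5 and 60.1 in replicate 2. IGHV3OR16-8, a heavy chain segment copied to chromosome 16, had 49 bases and scores of 21.4 and 18.6 in replicate 1 and 31.7 and 29.0 in replicate 2. Segments of a family share near-identical sequence and the sources used here do not tell how reads with several alignments were treated, so the placement on 1 family member is uncertain.

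The 4 widest pairs outside these segments were seen in replicate 2 alone and were chosen after their values were seen. HSPA2 and HSPA9, members of the HSP70 chaperone family, had pairs 64 and 51 bases apart. The HSPA2 pair scored 61.5 and 12.4, and the HSPA9 pair 9.73 and 0.0665. The others lay in no annotated gene, on chromosome 9 with 49 bases and on chromosome 2 with 46 bases.

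CSH2, a placental lactogen gene of the growth hormone cluster, held the widest pair of replicate 1 outside immunoglobulin segments, 43 bases at 63872057 and 63872100 on chromosome 17. Its plus and minus scores were 88.9 and 45.6 in replicate 1 and 160.2 and 104.3 in replicate 2. It was the 1 of 5 genes of this cluster with a pair in either library, beside 0.144% and 0.511% of all genes in replicates 1 and 2. The genes of the cluster are near-identical, which limits the placement in the same way.

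Outside the immunoglobulin loci IGH, IGK and IGL, which held 4, 2 and 2 pairs in each library, no gene had more than 1 pair in replicate 1. PTPN14, a tyrosine phosphatase gene, had 1 pair in replicate 1 and 2 in replicate 2. The shared PTPN14 pair, at 214504705 and 214504735 on chromosome 1, scored 78.4 and 72.5 in replicate 1 and 160.1 and 150.9 in replicate 2. The other PTPN14 pair scored 7.89 and 12.5. A total of 73 genes had 2 pairs summed over the libraries, and 74 genes held a pair in both. RUNX1, a blood transcription factor gene, SLC9A9, a sodium and proton exchanger gene, and SNTG1, a syntrophin gene, had 2 pairs each in replicate 2 and 0 in replicate 1, and were named after their values were seen. They are 3 of the 8 genes with 2 or more pairs in replicate 2, not all of which are reported here.

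Among the 20 highest shared pairs, FADS1, a fatty acid desaturase gene, scored 84.5 and 105.2 in replicate 1 and 155.9 and 168.5 in replicate 2. CDH3, the P-cadherin gene, scored 69.5 and 75.5 in replicate 1 and 153.8 and 170.8 in replicate 2. Both had nearly equal members in each library and higher scores in replicate 2. RASL12, a Ras-like GTPase gene, scored 67.5 and 77.0 in replicate 1 and 146.0 and 185.8 in replicate 2, and CFAP92 scored 72.4 and 144.2 in replicate 1 and 115.5 and 267.6 in replicate 2. XRCC6 scored 150.1 and 51.6 in replicate 1 and 179.0 and 91.7 in replicate 2, a pair in which the plus-strand member led.

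In no annotated gene, the highest shared pair was on chromosome X at 13387019 and 13387046, with 285.4 and 145.7 in replicate 1 and 381.9 and 241.0 in replicate 2. On chromosome 19 at 31147425 and 31147458 the scores were 145.5 and 157.7 in replicate 1 and 253.3 and 253.8 in replicate 2. The third, on chromosome 13 at 33735830 and 33735852, reached the ceiling on the plus strand in replicate 1 and scored 109.8 on the minus strand. In replicate 2 its plus and minus scores were 535.0 and 92.3, both lower than in replicate 1. In LOC105378782 on chromosome 1 the sites at 68302068 and 68302090 scored 115.8 and 189.0 in replicate 1 and 156.0 and 304.6 in replicate 2.

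BRAF, ARSF and C17orf99 each held 1 pair, the same in both libraries. BRAF, a kinase gene of the MAP kinase pathway, scored 35.2 and 39.7 in replicate 1 and 70.8 and 66.5 in replicate 2. ARSF, an arylsulfatase gene, scored 30.7 and 41.1 in replicate 1 and 68.6 and 77.2 in replicate 2. C17orf99 and the pseudogene EIF5AP2 within it shared a pair that scored 33.7 and 6.43 in replicate 1 and 45.2 and 20.8 in replicate 2. LIF, the cytokine that maintains mouse embryonic stem cells, was chosen after its values were seen, with 24.6 and 29.2 in replicate 1 and 42.5 and 62.3 in replicate 2.

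For the other lists, the number of genes with a pair is given beside 0.144% of all genes in replicate 1 and 0.511% in replicate 2. Of 25 pluripotency genes, 24 matched, 4 and 3 held a region in replicates 1 and 2, and 0 held a pair in either library. At the shares of all genes a list this short is not expected to hold a pair, so the 0 is no result about these genes. Of 25 long or neurodevelopmental genes, 0 held a pair in replicate 1 and 4 in replicate 2, and 17 and 15 held a region. GRIN2B, an NMDA receptor subunit gene, had a pair with scores of 53.7 and 42.5, MACROD2, an ADP-ribose hydrolase gene, 15.3 and 52.8, and PTPRD, a receptor tyrosine phosphatase gene, 15.3 and 45.2. The minus-strand member of the MACROD2 pair was listed in replicate 1 as well, at 44.8. Of the 451 tRNA genes, 27 held a region in replicate 2 and 1 in replicate 1, and 0 held a pair. Of 16845 pseudogenes, 1 held a pair in replicate 1 and 6 in replicate 2, which are lower shares than those of all genes. Among the 6 were LOC110467531 with 269.8 and 287.3 and LOC110262331 with 220.4 and 255.7.

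By gene class the members lay much like other regions, apart from the immune segments. Protein-coding spans held 46.3% of members in replicate 1 (39.9 to 52.8) and 47.5% of other regions (45.9 to 49.1), and in replicate 2 49.5% (46.2 to 52.9) and 49.2% (47.8 to 50.6). Long noncoding genes held 8.26% (5.12 to 12.5) against 12.6% (11.6 to 13.7), and 13.0% (10.8 to 15.4) against 11.7% (10.8 to 12.6). Between genes lay 38.8% (32.7 to 45.3) against 38.6% (37.1 to 40.1), and 35.0% (31.8 to 38.2) against 37.2% (35.8 to 38.5). The class of immune segments and other genes held 6.61% of members in replicate 1 (3.83 to 10.5) against 0.151% of other regions (0.0556 to 0.329), and 1.85% (1.06 to 2.99) against 0.0974% (0.0316 to 0.227) in replicate 2. Exons and introns were not separated, because the gene table gives spans only.

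The higher member lay on the gene's own strand in somewhat under 50% of pairs, with intervals that include 50%. For the pairs whose genes have a known strand, 44 in replicate 1 and 188 in replicate 2, the member on the gene's own strand was the higher in 43.2% (28.3 to 59.0) and 46.8% (39.5 to 54.2). The median score on the gene's strand was 31.6 in replicate 1 and 32.3 in replicate 2, and on the opposite strand 41.9 and 38.2.

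Pairs lay on every chromosome from 1 to 22 and on X in both libraries. None was found on chromosome Y, which had 21 and 22 regions, on chromosome M or on unplaced sequences. The share of a chromosome's regions that belonged to pairs ranged from 2.5% on chromosome 9 (0.685 to 6.28) to 15.4% on chromosome 22 (6.88 to 28.1) in replicate 1. In replicate 2 it ranged from 7.88% on chromosome 17 (4.57 to 12.5) to 20.6% on chromosome 16 (15.2 to 27.0). Pairs of 16 to 22 bases had the lowest share recurring in each library, with an interval apart from the wider ones in replicate 1 only. At 16 to 22 bases 56.2% of the pairs of replicate 1 recurred (37.7 to 73.6), against 87.5% at 23 to 30 bases (76.8 to 94.4) and 96.0% at 31 to 110 bases (79.6 to 99.9), and the lower score of the pair rose alongside, with medians of 16.9, 27.7 and 38.2 in replicate 1. The part of the score in this order was not tested. In replicate 2 the shares were 15.0% (9.14 to 22.7), 25% (19.5 to 31.2) and 27.3% (18.3 to 37.8), with intervals that all overlap, and the medians of the lower score were 21.2, 24.9 and 37.1.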

How the data were processed

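Cas9 irCLIP crosslink regions were measured in 2 libraries of 1 group, 4204 and 5995 regions. Each deposited file lists 1 library's regions with position, strand and score, so replicates were not pooled. Each deposited score equals the summed scores that the authors list for the region's sites (checked, tolerance 0.01), on an unnamed scale. Other columns used (positions and site lists) are as deposited, on hg38. Per the submitters' processing notes, Bowtie2 2.3.5, STAR 2.5.2, SAMtools, UMI-tools and deepTools were used, without role or order. For the region caller, its threshold and multiply aligned reads, the settings were not given in the sources used here. Read depth is unknown.

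Pairs, recurrence, gene placement and intervals were computed with Python 3.11.15, pandas 2.3.3 and scipy 1.17.1, and positions were printed counted from 1. Exact 95% Clopper-Pearson intervals are given for shares. Genes were taken from RefSeq spans on GRCh38.p14 (59716 genes), and gene strand from the promoter table. Overlapping opposite-strand promoter windows were compared, and 2822 of 2822 were identical after reverse complement. The pair search was tested on simulated data, with 200 of 200 planted pairs found. Members, lists and naming rule were chosen with earlier results of these data known. The rule names the 20 highest shared pairs by their lowest score, 10 genes with the most pairs, 5 unshared pairs per library and 3 genes per list; where ties were broken the order was alphabetical, and a gene that it takes is not reported here. The base composition around all sites needs a genome and was not run. Alternatives are given in the closing section.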

Additional observations from a re-analysis of the deposited data

How the results depend on the processing

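Of 85 alternative values over 19 results, 65 stayed within the interval, the spread of the libraries or 1.5 times the count, 19 moved and 1 reversed. Limiting regions to those at or above the median score left 78 and 233 pairs in replicates 1 and 2. Recurrence was taken over a different set, the members of the original pairs that were at or above that score, with or without their partner. Of these 190 and 600 members, 96.8% and 36.3% recurred, against 82.5% and 64.2% of other regions at or above that score. A start within 5 bases gave 59.2% and 45.1% for other regions. With replicate 2 limited to its highest-scoring regions, chosen for recurrence after the data were seen, 47.0% and 52.6% of other regions recurred, 31.7% of the members and 27.4% of the pairs of replicate 2. The ratio of the median score of members to that of other regions, 1.81 and 1.88, was 1.96 in replicate 2 without ceiling regions. With all members, recurring or not, set against recurring other regions alone, it was 1.08 in replicate 1 and reversed to 0.859 in replicate 2. That alternative sets unlike groups side by side. Without ceiling regions the median fold within a pair was 1.66 in replicate 1. Pairs that recur had a median distance of 26.5 bases in both libraries. Leaving out a library gave between 121 and 432 pairs, a median distance of 25 in either case and a median fold of 1.58 to 1.85. The order of members and other regions in recurrence, above in replicate 1 and below in replicate 2, held under these settings, and the cause was not tested. Leaving out the 9 immunoglobulin pairs, an alternative added after the data were seen and run on 14 of the 19 results, left 112 and 423 pairs and moved none of those 14, but the longest distance then falls from 109 to 43 and 64 bases. The fixed sequence window and the sequence of recurring pairs were not run, because no genome was used here. No paired analysis was possible because the libraries form 1 group and no test was made. Read depth is unknown, so a member absent from the other library may have been missed there.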
